A study of Homo sapiens with 3 samples.

Results

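INS, the gene of insulin, and IAPP, the gene of amylin (islet amyloid polypeptide), were followed through single-cell RNA profiles of beta cell differentiations in 3 PAX6 genotypes. Both were found by gene symbol, and they are 2 of the 33538 genes of the count matrices. All cells derive from H1, a human embryonic stem cell line, and had been taken through a beta cell differentiation. The genotypes were WT (unedited), HET (PAX6+/-) and KO (PAX6-/-). The sources used here give neither the site of the PAX6 lesion nor the number of edited clones. With 1 library per genotype, a difference between genotypes cannot be told apart from one between libraries, and no p-value is given. Intervals are exact 95% intervals for counting error only.

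Insulin and amylin are both made by pancreatic beta cells as larger precursors, cut by the same prohormone convertases, packed into the same secretory granules and released together when blood glucose rises. Insulin lowers blood glucose, and amylin slows gastric emptying and limits food intake. Both promoters are textbook targets of islet homeodomain factors such as PDX1, and PAX6, which carries a paired domain and a homeodomain, is a known activator of islet hormone genes.

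INS lies on chromosome 11 from 2159779 to 2161341 on the minus strand, and IAPP on chromosome 12 from 21354959 to 21379978 on the plus strand (GENCODE 29, GRCh38). IAPP lies within the span of SLCO1A2, a transporter gene on the opposite strand. INS overlaps the readthrough gene INS-IGF2, so the split of reads between those genes depends on the counting. That readthrough gene had only 22, 12 and 3 UMIs (unique molecular identifiers, 1 for each captured RNA molecule) in the CHGA-high cells of WT, HET and KO.

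Stretches upstream of both genes are shown as background, and their part in the KO levels was not tested. They are RefSeq sequences on GRCh38.p14, written 5′ to 3′ in the direction of transcription and shortened where an annotated exon begins. Capitals mark TAAT, the core letters of many homeodomain sites, on either strand (ATTA on the other strand), and neighbouring matches may share letters. The INS stretch is chr11:2161342-2161459 (minus strand), and the IAPP stretch, upstream of the nearer of its annotated start sites, is chr12:21372652-21372883 (plus strand). Both end short of the RefSeq start sites, 2161209 for INS and 21372902 for IAPP. The bases nearest those sites are therefore not printed, and matches counted below can lie in them.
INS: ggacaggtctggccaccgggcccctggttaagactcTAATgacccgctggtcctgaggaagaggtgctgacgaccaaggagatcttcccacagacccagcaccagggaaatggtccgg
IAPP: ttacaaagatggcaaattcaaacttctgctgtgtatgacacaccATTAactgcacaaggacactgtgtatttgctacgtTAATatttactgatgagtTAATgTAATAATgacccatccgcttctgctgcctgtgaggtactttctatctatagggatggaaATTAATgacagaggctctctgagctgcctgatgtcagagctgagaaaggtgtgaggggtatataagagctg
Over the full 250 bases before the RefSeq start site, INS had 2 TAAT matches and IAPP 8. Of 35116 promoters of the same length, 47.4% held at least 1 match and 1.12% held 8 or more. The farther IAPP start site had 2 matches. CANNTG, the letters of basic helix-loop-helix sites, was found once upstream of INS, not at the nearer IAPP start and 2 times at the farther one, against 61.8% of promoters with a match. TGACG, of cyclic AMP response elements, and TATAAA were each found once upstream of INS and not at either IAPP start, with matches in 21.2% and 10.7% of promoters. These are letter matches, not measured binding.

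The 3 libraries held 9628 to 9726 barcodes and between 136834433 and 145948590 UMIs, and after filtering 8662 WT, 8468 HET and 8785 KO cells were kept. Cells with at least 10 UMIs of CHGA, the granule protein of endocrine cells, per 10000 UMIs were called CHGA-high. They numbered 1649 in WT (19.0%), 638 in HET (7.53%) and 1122 in KO (12.8%), so most cells of these beta cell differentiations were not endocrine by this marker. Their median depth was 13427, 13363 and 12709.5 UMIs, and their median mitochondrial share was 6.41%, 8.41% and 8.98%. The part of that higher mitochondrial share in the results was not tested. The libraries shared 26 to 43 barcodes in pairs. PAX6 RNA remained in KO, with 490 (WT), 316 (HET) and 453 CPM (KO) over INS-positive cells (defined below by at least 20 INS UMIs per 10000), so the PAX6 level is no check of the labels without the lesion's position.

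INS was lower in KO, both in the number of cells that held it at a high level and in the level of those cells. Summed over CHGA-high cells, WT held 189365 INS UMIs, HET 67830 and KO 27709. Per 10000 UMIs of the class this was 73.6 in WT (73.3 to 74.0), 65.5 in HET (65.0 to 66.0) and 17.4 in KO (17.2 to 17.6). As CPM (the count scaled to a common library size, here with a TMM correction for composition), INS stood at 7690 in WT, 6564 in HET and 1663 in KO. The KO level was 4.62-fold below WT (4.57 to 4.68) and the HET level 1.17-fold below it (1.16 to 1.18). HET was thus close to WT and KO stood apart from both. Over the same cells 156 of 3731 genes were at least 2-fold apart between KO and WT (4.18%), 50 higher (1.34%) and 106 lower (2.84%), and INS and IAPP were both among the lower ones. Between HET and WT 51 of 3639 genes were 2-fold apart (1.40%), 20 higher (0.550%) and 31 lower (0.852%), and of the members only IAPP was among these.

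The drop was not an even shift of all cells. The median CHGA-high cell held 22.3 INS UMIs per 10000 in WT, 10.5 in HET and 0.797 in KO. The cell at the 90th percentile held 237, 233 and 54.1 in the same order. The richest cell held 803, 1447 and 487. In WT 23.5% of CHGA-high cells were under 1 INS UMI per 10000, in HET 29.9% and in KO 54.0%. Only 4.23% to 6.51% of CHGA-high cells fell between 5 and 10 in any library, while WT and HET had a second, broad group of cells between 20 and 500. Cells of 500 or more numbered 18 in WT, 4 in HET and 0 in KO, which allows a KO share of up to 0.267% (3 cells of the total, the limit given for each count of 0).

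**Figure D1:**
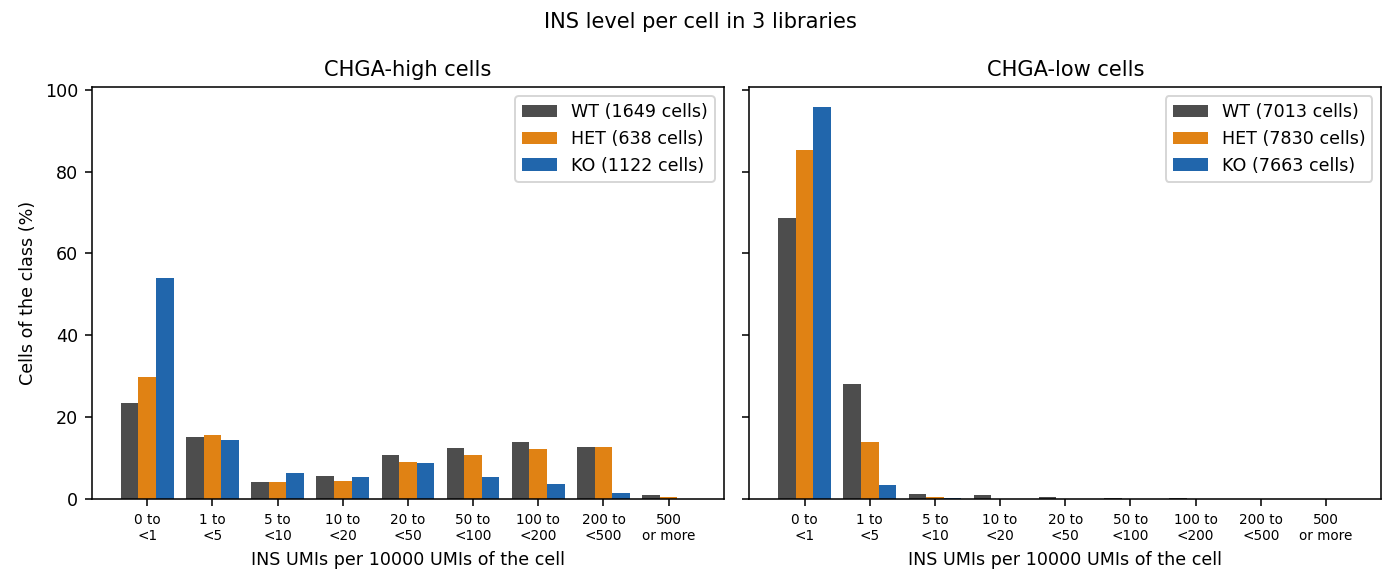
Bars give the percent of cells of each library (WT, HET and KO) in bands of INS UMIs per 10000 UMIs of the cell, for CHGA-high cells on the left and CHGA-low cells on the right. In CHGA-high cells 54.0% of KO cells are in the lowest band, against 23.5% in WT, and almost all CHGA-low cells are below 5.

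Cells with at least 20 INS UMIs per 10000 were called INS-positive. They made up 845 of 1649 CHGA-high cells in WT (51.2%, 48.8 to 53.7), 291 of 638 in HET (45.6%, 41.7 to 49.6) and 219 of 1122 in KO (19.5%, 17.2 to 22.0). With every cell thinned to 3000 UMIs the shares were 52.7%, 46.1% and 20.4%, with 103, 20 and 93 shallower cells left out. Within INS-positive cells the median INS level was 113 per 10000 in WT (quartiles 55.3 and 212), 126 in HET (57.0 and 223) and 54.6 in KO (35.1 and 110), all above 20 by the choice of cells. Among INS-positive cells 54.6% of WT, 56.4% of HET and 26.5% of KO reached 100 per 10000. Over all INS-positive cells INS stood at 14369 (WT), 13887 (HET) and 7714 CPM (KO). INS was 1.86-fold lower in INS-positive KO cells than in INS-positive WT cells (1.84 to 1.89).

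Low INS counts were also widespread in CHGA-low cells and have to be read with care. Whether they were background RNA or low expression was not tested. A UMI of INS was found in 87.0% of WT, 80.4% of HET and 58.3% of KO CHGA-high cells. In CHGA-low cells, whose median depth of 14528, 14015 and 15593 UMIs was slightly greater, the shares with a UMI were 64.7%, 45.1% and 20.2%. Thinned to 3000 UMIs, the shares with an INS UMI were 71.9%, 61.5% and 42.3% in CHGA-high cells and 21.3%, 12.0% and 4.90% in CHGA-low cells. The summed CHGA-low level was 1.48 INS UMIs per 10000 in WT, 0.519 in HET and 0.252 in KO, far below the 20 per 10000 that defined an INS-positive cell. In CHGA-low cells under 20 INS UMIs per 10000 it was 0.869, 0.430 and 0.173, so in WT the few richer cells held 6977 of the 16656 CHGA-low INS UMIs. The CHGA-low level followed the order of the total INS of the libraries. CHGA-low cells included 84 WT, 17 HET and 17 KO cells with at least 20 INS UMIs per 10000, with median CHGA of 5.85, 7.75 and 6.03 per 10000, just under the CHGA limit. These cells held 3.39% of all INS UMIs in WT, 1.5% in HET and 3.25% in KO.

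IAPP was concentrated in a minority of WT endocrine cells and was nearly absent from the KO library. CHGA-high cells held 6271 IAPP UMIs in WT, 847 in HET and 1 in KO. Per 10000 UMIs of the class this was 2.44 in WT (2.38 to 2.50), 0.818 in HET (0.764 to 0.875) and 0.00063 in KO (1.6e-05 to 0.0035). IAPP was 3.11-fold lower in HET than in WT (2.89 to 3.34). The single KO count gave a ratio of 4244 between WT and KO, with a counting interval from 761 to 167640. The libraries thus stood in the order WT, HET, KO.

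A UMI of IAPP was found in 276 of 1649 WT CHGA-high cells (16.7%), 41 of 638 HET cells (6.43%) and 1 of 1122 KO cells (0.0891%). The share in CHGA-low cells was 3.74% in WT, 0.549% in HET and 0.196% in KO, at the depths given above. The KO share in CHGA-high cells, which rests on 1 cell, thus did not exceed the KO share in CHGA-low cells. At least 20 IAPP UMIs per 10000 were reached by 55 WT, 8 HET and 0 KO CHGA-high cells. Of those, 53 of 55 in WT and 8 of 8 in HET were INS-positive. The IAPP-rich WT cells had a median of 168 INS UMIs per 10000, and 44 of the 55 also held at least 20 GCG UMIs per 10000 and 38 at least 20 of PYY.

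A few cells carried much of the amylin signal in both HET and WT. The 5 CHGA-high cells richest in IAPP held 30.6% of the IAPP UMIs in WT and 63.4% in HET. The richest single cells held 631 and 234 UMIs. These 5 cells are a larger part of the 638 HET than of the 1649 WT cells. Over an equal share of each class, the richest 165 WT and 64 HET cells held 97.9% and 100%. Without the 5 richest cells of each library, a choice made after seeing the data, the HET to WT log2 ratio was -2.55 in place of -1.64. That step took a larger part of the IAPP UMIs from HET than from WT, so a lower ratio is partly built in. The INS ratios hardly moved with the same cells left out, from -2.21 to -2.20 in KO and from -0.23 to -0.22 in HET on the log2 scale. INS was spread more evenly than IAPP. The 5 cells richest in INS held 3.33% of its WT, 5.96% of its HET and 9.43% of its KO UMIs. Over an equal share of each class, the richest 165 WT, 64 HET and 113 KO cells held 46.8%, 48.5% and 76.2%.

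The 16 IAPP UMIs of the kept KO cells came 1 to a cell, and 15 of them were in CHGA-low cells. Those 15 cells had a median of 0 INS and 0 CHGA UMIs, and no barcode of the 16 cells was also present in the WT or the HET library. Of its 9726 barcodes KO shared only 26 with WT and 30 with HET. A match was thus unlikely in any case, and its absence does not tell where the UMIs came from. The CHGA-low IAPP level was 0.00117 per 10000 in KO (0.00066 to 0.0019), above the CHGA-high KO value with overlapping intervals. Counted against INS, CHGA-high cells had 3.31 IAPP UMIs per 100 INS UMIs in WT, 1.25 in HET and 0.0036 in KO. In CHGA-low cells the ratio was 5.40 in WT, 1.16 in HET and 0.466 in KO. The CHGA-low ratio was thus above the CHGA-high one in WT and KO. In CHGA-low cells under 20 INS UMIs per 10000 the ratio was 5.25 in WT, 0.769 in HET and 0.677 in KO, and in HET the 17 INS-rich CHGA-low cells held 34 of the 75 CHGA-low IAPP UMIs.

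**Figure D2:**
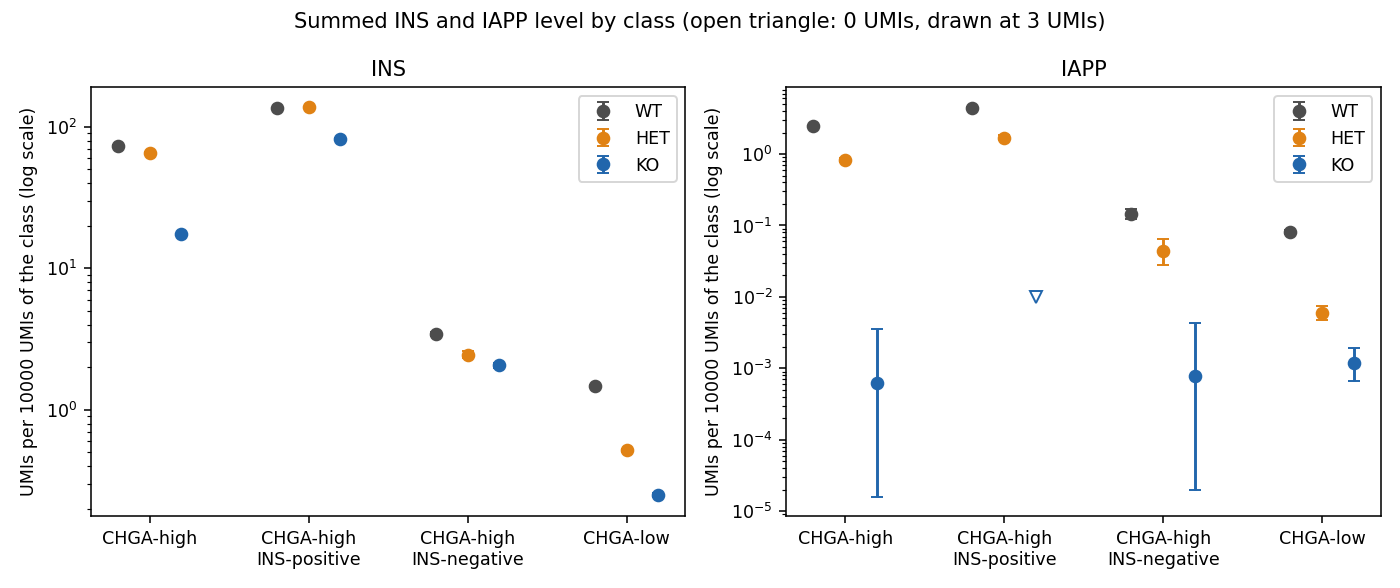
Points give the summed UMIs of INS (left) and IAPP (right) per 10000 UMIs of the class on log scales for WT, HET and KO, with exact Poisson 95% intervals, and an open triangle stands for 0 UMIs drawn at 3 UMIs. IAPP in INS-positive cells goes from 4.48 in WT to 1.71 in HET and 0 in KO, while INS goes from 136 to 138 and 82.1.

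The lower IAPP level in KO held within cells of the same INS level. CHGA-high cells were split at 5, 20, 100 and 500 INS UMIs per 10000. In WT IAPP was higher in each next stratum, from 0.0861 UMIs per 10000 under 5, through 0.363, 2.57 and 6.09, to 16.9 at 500 or more. In HET the values were 0.0128, 0.213, 2.09, 1.36 and 0, the last over only 4 cells. KO had 0 IAPP UMIs in every stratum except 5 to 20, which held 1 UMI (0.0054 per 10000), and it had no cell at 500 or more.

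In the stratum from 100 to 500 INS UMIs per 10000, 135 of 443 WT cells (30.5%), 23 of 160 HET cells (14.4%) and 0 of 58 KO cells held an IAPP UMI. A count of 0 in 58 cells allows a KO share of up to 5.17% by the rule used here for counts of 0, which takes 3 cells of the total, and the exact upper limit is 6.16%. From 20 to 100, the counts were 80 of 384 (20.8%), 10 of 127 (7.87%) and 0 of 161, which allows up to 1.86%. Median depth in that stratum was 14487.5, 14105 and 12761 UMIs. With the 0 set to a floor of 3 UMIs for the stratum, IAPP was 190-fold lower in KO than in WT from 20 to 100. From 100 to 500 it was 169-fold lower. The exact lower limits of these ratios were 154-fold and 137-fold. In HET the difference was uneven, 1.23-fold lower than WT from 20 to 100 (1.11 to 1.36) and 4.47-fold lower from 100 to 500 (4.0 to 5.02), the first resting on 10 cells with a UMI.

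With WT levels in each INS stratum applied to the depth of the other libraries, HET CHGA-high cells would have held 2220 IAPP UMIs and held 847, which is 38.2% (35.6 to 40.8). KO cells would have held 1239 and held 1, which is 0.0807% (0.0020 to 0.450). Counted in cells rather than UMIs, 97.9 HET cells with an IAPP UMI were expected and 41 found, and in KO 104 were expected and 1 found. Among INS-positive cells alone KO held 0 UMIs against 1077 expected, 359-fold lower at the floor of 3 UMIs. The exact lower limit was 292-fold. IAPP was thus far lower in KO than in WT also among cells of the same INS level. Without the 5 richest IAPP cells the HET value was 19.8% of that expected. Those cells held 63.4% of the IAPP UMIs in HET against 30.6% in WT, so a lower value is partly built in.

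**Figure D3:**
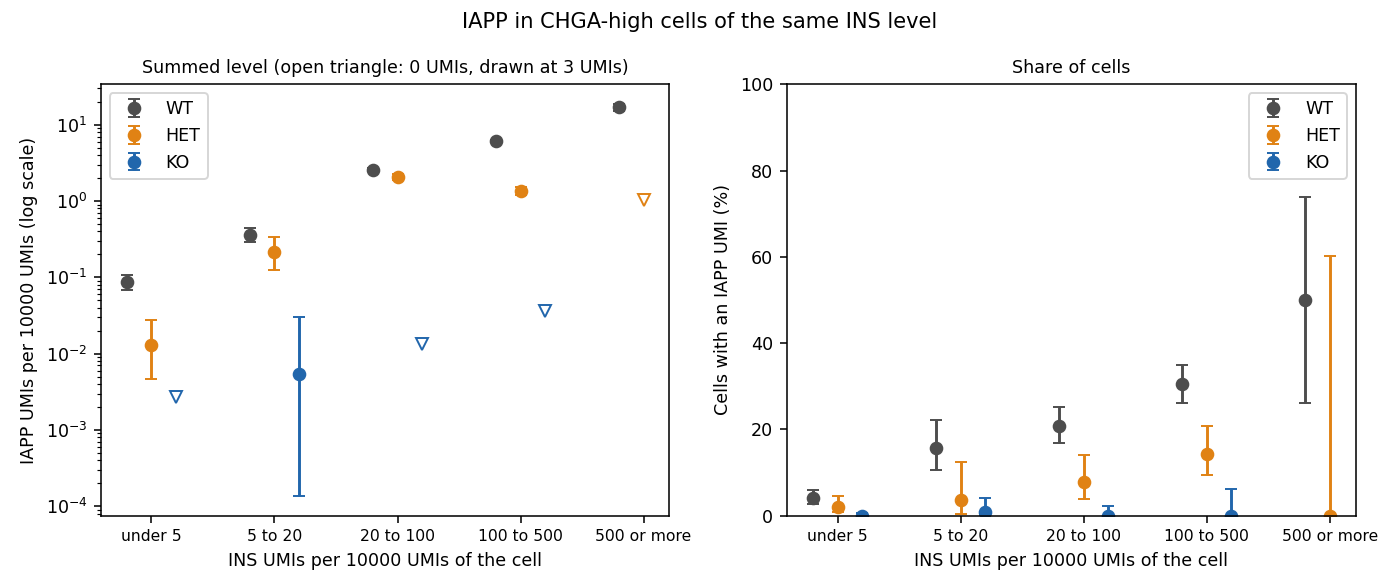
The left panel plots IAPP UMIs per 10000 UMIs on a log scale in 5 strata of INS level for CHGA-high cells of WT, HET and KO, with exact Poisson 95% intervals and an open triangle at 3 UMIs where the count is 0. The right panel plots the percent of cells with an IAPP UMI with exact binomial 95% intervals. KO stays at or near 0 in each stratum it occupies, and WT goes from 4.07% to 50%.

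IAPP was also compared within INS-positive cells that did or did not hold glucagon RNA (GCG), the most frequent hormone beside INS in WT. INS-positive cells with at least 20 GCG UMIs per 10000 held 693 IAPP UMIs in HET against 1607 expected from WT cells of the same kind and INS level, and 0 in KO against 320 expected. INS-positive cells with less GCG held 130 in HET against 405 expected, and 0 in KO against 328. The narrowest set held INS and none of GCG, SST, PPY, PYY, GHRL, GAST, CRH or TPH1 at 20 per 10000. In it WT had 560 IAPP UMIs in 34 of 253 cells, HET 3 UMIs in 2 of 99 cells and KO 0 in 102 cells. Per 10000 UMIs these levels were 1.32 in WT (1.21 to 1.43) and 0.0176 in HET (0.0036 to 0.051). INS-positive cells with GCG alone among GCG, SST, PPY and GHRL were richer, at 6.08 in WT and 3.43 in HET. Those with SST alone among these 4 held 1.32 in WT. Within this set few HET cells held IAPP, and the HET value rests on 3 UMIs.

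The hormones held beside INS differed between the libraries. In WT INS-positive cells 56.4% also held at least 20 UMIs per 10000 of GCG, glucagon of alpha cells, 38.5% of PYY, peptide YY, 17.2% of SST, somatostatin of delta cells, and 11.7% of PPY, pancreatic polypeptide. In HET the shares were 51.2%, 25.4%, 13.7% and 6.53%. In KO they were 16.9% (12.2 to 22.5), 1.83% (0.50 to 4.61), 3.20% (1.29 to 6.47) and 0% (0 of 219, which allows up to 1.37% as 3 cells of the total, with an exact upper limit of 1.67%). GAST, the gastrin gene, was beside INS in 9.47%, 12.7% and 1.37% of cells. Hormones of other islet cells beside INS were thus less frequent in KO than in WT for each of these genes.

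GHRL, the ghrelin gene of epsilon cells, went the other way. It was held at 20 per 10000 by 1.18% of INS-positive cells in WT (0.57 to 2.17), 6.53% in HET (3.98 to 10.0) and 24.7% in KO (19.1 to 30.9). CRH, corticotropin-releasing hormone, was held by 0.473%, 4.12% and 18.3%. TPH1, which makes the first step of serotonin synthesis, was held by 0.473%, 2.06% and 8.68%. For each of these 3 genes HET lay between WT and KO. The same level was rare in CHGA-low cells, with at most 1.33% for GCG in WT and 0.235% for GHRL in KO.

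In KO the INS-positive cells were set apart from INS-negative endocrine cells by some of these genes more than by others. GHRL was held by 16.6% of KO INS-negative CHGA-high cells, CRH by 7.42% and TPH1 by 7.53%, against 24.7%, 18.3% and 8.68% in INS-positive ones. GCG stood out most, with 16.9% against 1.99%. The CRH intervals were also apart (13.4 to 24.0 against 5.80 to 9.33), while those of GHRL and of TPH1 overlapped. Seen from the other hormone, 84.1% of WT, 87.6% of HET and 67.3% of KO cells with GCG were INS-positive. Of the cells with GHRL, 22.2% of 45 in WT, 26.0% of 73 in HET and 26.5% of 204 in KO were INS-positive. These shares differed by less than their counting error. Over all CHGA-high cells, however, the INS-positive shares were 51.2%, 45.6% and 19.5%. Cells with GHRL thus lay below the share of their library in WT and HET and above it in KO. In KO the intervals overlapped (20.6 to 33.1 against 17.2 to 22.0).

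The make-up of the INS-positive cells followed from this. INS without GCG, SST, PPY or GHRL at 20 per 10000 was seen in 297 WT (35.1%), 120 HET (41.2%) and 133 KO cells (60.7%). INS with GCG alone among the 4 was seen in 319, 104 and 29 cells. INS with GHRL alone was seen in 1, 10 and 43 cells. The median INS level of cells without the 4 hormones was 93.9 per 10000 in WT, 78.8 in HET and 51.8 in KO, so the KO level was also below WT in cells without these 4 hormones. In cells without any of the 8 genes above it was 93.9, 78.9 and 47.7. Doublets were kept alike in all libraries. The 8% of cells with the highest doublet scores took in 13.3%, 13.7% and 8.68% of INS-positive cells, and without them the GCG share was 57.0%, 52.6% and 16.5% and the GHRL share 1.36%, 7.17% and 24.0%.

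**Figure D4:**
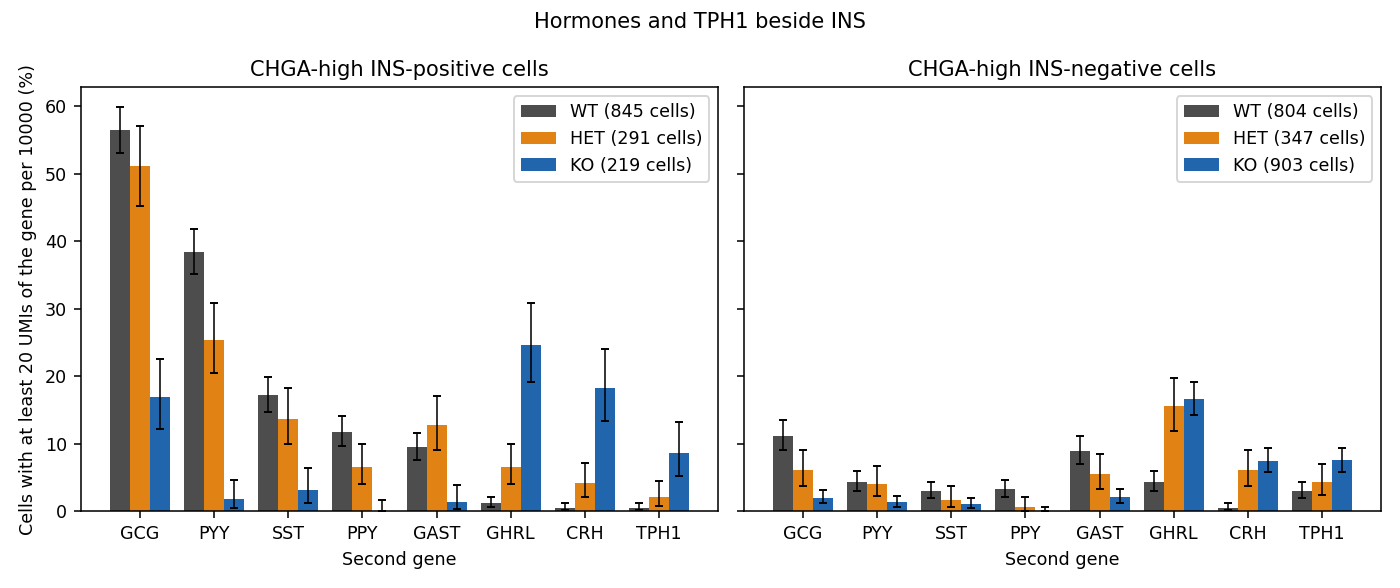
Bars give the percent of CHGA-high cells with at least 20 UMIs per 10000 of each second gene in WT, HET and KO, with exact binomial 95% intervals, for INS-positive cells on the left and INS-negative cells on the right. GCG goes from 56.4% in WT to 16.9% in KO beside INS, and GHRL from 1.18% to 24.7%.

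Gene by gene, INS-positive KO cells differed from INS-positive WT cells at many loci beyond INS. Of 3630 genes with at least 50 CPM in 1 of the libraries, 268 were at least 2-fold apart (7.38%), 100 higher (2.75%) and 168 lower (4.63%) in KO. Between HET and WT 57 of 3520 genes were 2-fold apart (1.62%), 23 higher (0.653%) and 34 lower (0.966%). The split depended on the scaling. With plain CPM, KO had 160 genes higher and 104 lower and HET had 28 each way, as the median log2 ratio of all genes in KO moved from -0.05 to 0.15. IAPP had the largest ratio of the genes tested, with 473 CPM in WT, 172 in HET and 0 UMIs in KO. With the 0 set to the floor of 3 UMIs, IAPP was 512-fold lower in KO than in WT. In HET it was 2.75-fold lower (2.56 to 2.96), also among the 10 lowest genes.

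FFAR1, a fatty acid receptor of beta cells, was next, with 1344 WT and 2 KO UMIs, a ratio of 169 (counting interval 46.8 to 1399). PPY was 65.5-fold lower in KO (50.5 to 86.5). SLC30A8, the zinc transporter of the insulin granule, stood at 638 (WT), 325 (HET) and 10.5 CPM (KO), 60.9-fold lower in KO (43.5 to 88.0). The rest of the 10 lowest were NKAIN4, SST, CYSLTR2, PYY, FAM13C and PDLIM2, between 17.9-fold and 45.4-fold lower. The 10 highest in KO were led by GHRL, 28.5-fold (27.1 to 29.9), CRH, 16.9-fold (15.7 to 18.2), GSG1, 15.1-fold, TPH1, 13.9-fold, and TWIST1, a mesodermal transcription factor, 11.7-fold. COL5A2, TNP1, ACSL1, AC109466.1 and FOSB were between 5.19-fold and 7.75-fold higher. In HET GHRL was 5.31-fold, CRH 4.68-fold and TPH1 3.17-fold higher than in WT, the same order as in KO at smaller size.

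The gene lists below count members from 5 CPM. Of all 11774 genes at that level, 1317 were at least 2-fold apart between KO and WT (11.2%), 430 higher (3.65%) and 887 lower (7.53%), and between HET and WT 488 of 11790 were (4.14%), 181 higher (1.54%) and 307 lower (2.60%). Both medians were -0.05. Of 16 measured islet and gut hormone genes, 4 were at least 2-fold higher and 9 lower in KO, with a median log2 ratio of -2.55, and in HET 3 of 15 were higher and 4 lower, with a median of -0.46.

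Among genes that process and store the hormones, 3 of 17 measured members were at least 2-fold lower in KO, 0 higher, and the list's median log2 ratio was -0.51. The 3 were SLC30A8, SCG5, the chaperone of convertase PCSK2, with 1707 (WT) and 370 CPM (KO), and SCG3, a granin, with 1283 and 530.0 CPM. PCSK1, the convertase that begins proinsulin cleavage, was 129 (WT), 95.9 (HET) and 203 CPM (KO), and PCSK2 was 145, 100.1 and 147 CPM. The carboxypeptidase gene CPE was 1864, 1454 and 1303 CPM. In HET 0 of 17 members were 2-fold apart, with a median of -0.43. RNA of the convertases shared by proinsulin and pro-amylin was thus still present in KO, and their protein was not measured.

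Of 20 genes of proinsulin folding in the endoplasmic reticulum, 2 were at least 2-fold lower in KO and 0 higher, a share near that of all genes. Smaller differences went mostly 1 way, with 19 of the 20 below a log2 ratio of 0. The list's median was -0.47, against -0.05 for all genes. ERO1B, the islet-enriched oxidase that forms disulfide bonds, was 1897 (WT), 1270.2 (HET) and 241 CPM (KO). ERN1, the gene of the stress sensor IRE1 alpha named in the title of the series, was 27.7 (WT), 12.3 (HET) and 12.0 CPM (KO). The other 18, among them the chaperone HSPA5 (626, 580 and 550 CPM) and XBP1 (257, 226 and 181 CPM), were within 2-fold. In HET ERN1 was the 1 member lower, and the median was -0.18.

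Glucose sensing and secretion genes gave 5 of 14 lower and 3 higher in KO, with a median log2 ratio of -0.63. G6PC2, an islet glucose phosphatase, was 16.5 CPM in WT (213 UMIs), higher in HET at 24.2 CPM (116 UMIs), and had 0 UMIs in KO. TRPM5, a calcium-activated channel, was 29.6, 21.9 and 3.39 CPM. The potassium channel subunit ABCC8 (207, 187 and 145 CPM) was within 2-fold. In HET 3 of 13 were higher, 0 lower, and the median was 0.02. Over all CHGA-high cells 2 of the 14 were higher and 5 lower in KO. The 2 were SLC2A1, 2.85-fold, and FFAR4, 2.52-fold.

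Of 19 beta cell transcription factors, 3 were at least 2-fold higher in KO and 0 lower, with a median log2 ratio of 0.18. The 3 were PAX4 (WT 62.0, HET 70.6 and KO 150.3 CPM), NKX2-2 (75.6, 111 and 175 CPM) and ST18 (23.7, 34.3 and 52.0 CPM). PDX1 was 179, 117 and 108 CPM, and ISL1 927, 796 and 740 CPM. NKX6-1, a marker of maturing beta cells, was 79.3, 64.1 and 89.9 CPM, but its KO to WT log2 ratio was 0.18 over all INS-positive cells and -0.66 in those with less than 20 GCG UMIs per 10000. MAFA, a factor of mature beta cells, was under 5 CPM in each library, too low to compare, and UCN3, another maturity marker, was 56.7, 24.4 and 11.4 CPM. In HET 0 of 19 factors were 2-fold apart.

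Factors of other islet cells had 2 of 9 members higher and 3 lower in KO. The alpha cell hormone gene GCG was 17.4-fold lower in KO (51150 against 2942 CPM). HHEX, the delta cell factor, was 22.8, 33.0 and 4.62 CPM. Enterochromaffin genes were higher in 6 of 10 and lower in 2, with a median log2 ratio of 1.41 in KO and 0.35 in HET. Among them the serotonin transporter of granules SLC18A1 was 1.94 in WT and 23.4 CPM in KO, and SLC6A4, the uptake transporter, was 24.8 and 0.616 CPM (320 and 2 UMIs). Of 8 measured genes of insulin and amylin receptors and signalling, 1 was lower in KO, near the share of all genes. It was RAMP2, an accessory protein of calcitonin-family receptors, with 40.7 (WT) and 18.2 CPM (KO).

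The 21 markers of non-endocrine cells summed to 19.2 UMIs per 10000 in INS-positive cells of WT, 25.1 in HET and 21.5 in KO, against 35.7 to 47.3 in CHGA-low cells. In KO 1 of 14 measured markers was at least 2-fold higher and 6 were lower, and DCN, LUM and CDH5 were at 0. In HET 4 of 18 were higher, among them COL3A1 with 113 UMIs, DCN with 48 and LUM with 38, each with 1 UMI in WT, and PECAM1 was at 0. The part of these cells in the HET values was not tested.

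**Figure D5:**
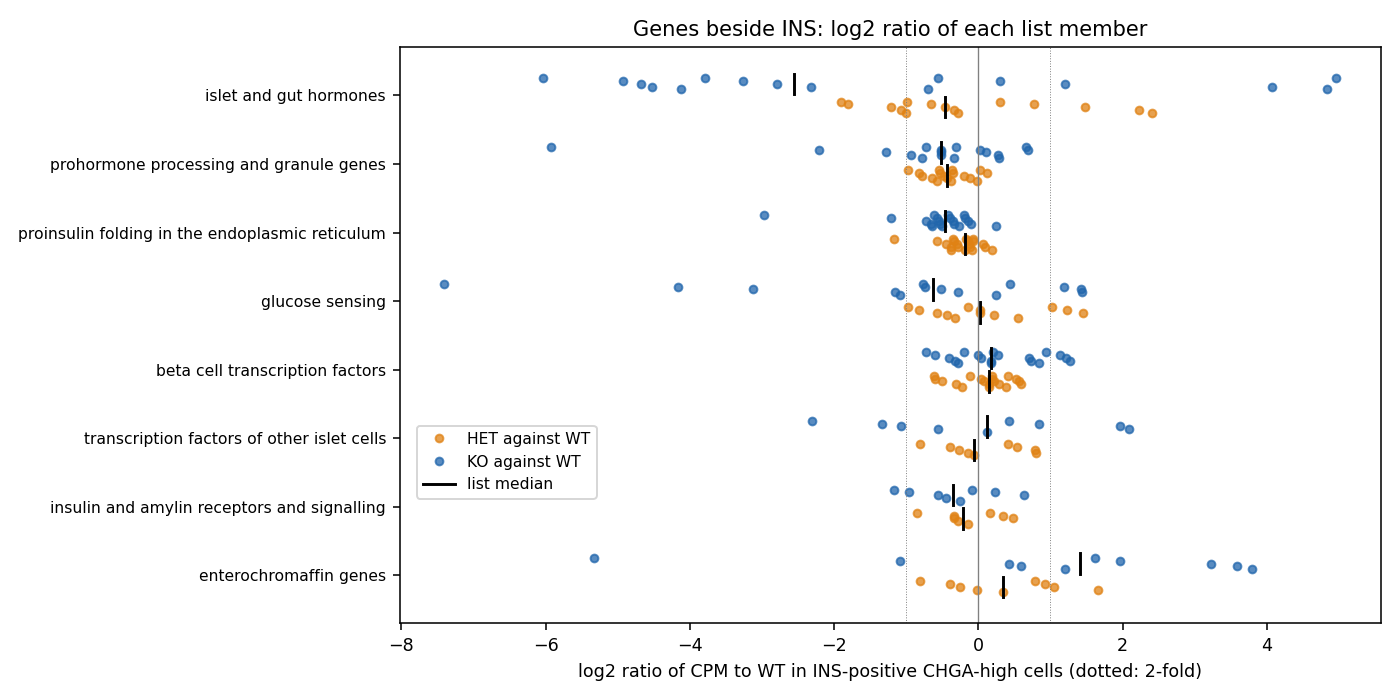
Each point is the log2 ratio of CPM to WT of 1 gene in INS-positive CHGA-high cells, for KO and HET, in 8 gene lists, with black ticks for list medians and dotted lines at 2-fold. The hormone list has a KO median of -2.55 and reaches beyond 2-fold both ways, and beta cell transcription factors lie near 0 with a KO median of 0.18.

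Within KO, INS-positive cells were compared with INS-negative endocrine cells of the same library, which needs no other library. Of 3699 genes, 67 were at least 2-fold apart (1.81%), 29 higher (0.784%) and 38 lower (1.03%), INS, which made the split, being 1 of the 29. GCG was 19.2-fold higher in INS-positive cells (18.3 to 20.1), at 3185 CPM against 166 CPM. SHISAL2B was 5.74-fold, C2CD4A, a gene at a type 2 diabetes locus, 4.22-fold, GRIA4, a glutamate receptor subunit, 4.08-fold and SST 3.67-fold higher. TWIST1 was 3.27-fold and GAL, the galanin gene, 3.29-fold higher. The lowest were CNTN1, TLX2, S100A14, LINC00682, PENK and GC, between 3.75-fold and 4.92-fold lower. SLC30A8 had a log2 difference of 2.69 and ERO1B of 1.02 in the same direction as INS, but at low KO levels. PAX6 RNA was 453 CPM in KO INS-positive and 234 CPM in KO INS-negative cells, the same direction as in WT (490 and 105 CPM) and HET (316 and 150 CPM).

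The same split within WT gave 157 of 3556 genes 2-fold apart (4.42%), 99 higher (2.78%) and 58 lower (1.63%). After INS itself, IAPP differed most, 34.5-fold higher in INS-positive WT cells (29.7 to 40.3), followed by SLC30A8, 13.7-fold, PYY, 11.1-fold, and FAM13C, UCN3, FFAR1, GCG, CYSLTR2 and LMO2, between 6.58-fold and 8.24-fold. Within HET 125 of 3602 genes were 2-fold apart (3.47%), 87 higher (2.42%) and 38 lower (1.05%), and IAPP was again first after INS, 43.0-fold higher (28.7 to 67.5). In KO IAPP had no UMI in INS-positive cells and could not enter.

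Across the 1649 WT CHGA-high cells, the genes whose log2(UMIs per 10000 + 1) followed INS most closely among 3284 genes were ERO1B (Pearson r of 0.68), SLC30A8 (0.66), ISL1 (0.65), PAX6 (0.63) and GNAS (0.63), then LMO2, SCG5, SCG3, PLK2 and FFAR1 (0.53 to 0.60). These are descriptions across cells of 1 library that share depth and any background RNA. Over 638 HET cells the same 10 genes gave 0.42 to 0.63, and over 1122 KO cells 0.01 for FFAR1 to 0.39 for ISL1. FFAR1 had only 3 UMIs in those KO cells, so its r there had to be near 0. IAPP ranked 57 in likeness to INS in WT (r of 0.33), and r between both genes was 0.20 in HET and 0.02 in KO. The KO cells held 1 IAPP UMI, so that r had to be near 0 and tells nothing of a link. The genes most like IAPP in WT were LMO2 (0.36), PYY (0.35), INS (0.33), WLS (0.31), FFAR1 (0.30), PAX6 (0.29), GNAS (0.28), SLC30A8 (0.27), SCG3 (0.27) and RAP1B (0.26).

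IGF2, the insulin-like growth factor next to INS, was 630 (WT), 446 (HET) and 440.1 CPM (KO) over CHGA-high cells, and TH on the other side was at 4.67, 2.61 and 3.66 CPM. Beside IAPP, PYROXD1 was 16.5, 20.7 and 22.3 CPM, RECQL 34.8, 38.8 and 41.6 CPM, and SLCO1A2, whose span contains IAPP, had 24, 31 and 23 UMIs. IGF2-AS, antisense to IGF2, was 16.9, 13.4 and 11.3 CPM. These 6 neighbours were within 2-fold of WT in KO, while INS and IAPP were not, nor was the readthrough INS-IGF2 with its 22 WT and 3 KO UMIs.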

How the data were processed

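The values are UMI counts per gene and barcode as deposited, not normalized, 1 matrix for each of 3 libraries; the matrix headers name Cell Ranger 6.1.2, and GRCh38 and Seurat stand in the submitters' processing notes with no role. Barcodes with at least 1000 UMIs, 500 genes and at most 20% mitochondrial UMIs were kept. Scrublet (scanpy 1.11.5) called 0 barcodes in each library, so it did not work, and doublets were kept. Class sums were scaled to CPM with TMM factors (edgeR 4.0.16, R 4.3.3), with no test. Intervals are exact Poisson, conditional binomial or Clopper-Pearson at 95%, and a 0 was set to a floor of 3 UMIs. The fold calculation was tested on simulated data. Cell classes are limits on CHGA and INS, not clusters.

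By rule the text names INS, IAPP, PAX6 and CHGA, list members reaching 5 CPM (9 lists, 141 entries, 1 absent from the matrices), the 10 genes highest and the 10 lowest in INS-positive KO against WT cells, the 10 most like each member across WT cells, and genes within 100 kb. Genes named in the comparisons within a library, and MAFA, were chosen after their values were seen. Members and lists were chosen with earlier results of these data known. Alternatives changed the CHGA and INS limits, cell filter, doublet treatment, scaling, depth, strata and gene minimum. A few members of the gene lists are counted but not reported here by name.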

Additional observations from a re-analysis of the deposited data

How the results depend on the processing

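No paired analysis was possible because each genotype has 1 library. The INS log2 ratio of KO to WT, -2.21 as reported, was -2.14 with a CHGA minimum of 5, -2.34 with a stricter filter (3000 UMIs or more, mitochondrial share up to 10%), -2.14 without the top 8% of doublet scores and -2.08 with plain CPM. In HET it was -0.29, -0.28, -0.18 and -0.17 in that order, and -0.16 with a CHGA minimum of 20, against -0.23. The IAPP ratio of HET was -1.81 with a CHGA minimum of 20, -1.47 with the stricter filter, -1.82 without the top scores and -2.55 without the 5 cells richest in IAPP. The INS-positive share with a limit of 10 or 50 was 57.0% or 40.4% in WT, 50.2% or 36.5% in HET and 25.04% or 10.7% in KO. A CHGA minimum of 5 gave 46.0% in WT and 38.9% in HET, and one of 20 gave 53.8% in WT. IAPP in INS-matched HET cells was 33.0% of that expected with a CHGA minimum of 20, 43.8% with the stricter filter, 33.0% without the top scores, 31.6% in cells under 20 GCG UMIs per 10000 and 19.8% without the 5 richest cells, when KO was 0%. Without the minimum of 50 CPM, and with at least 10 UMIs, 2480 of 15435 genes were 2-fold apart in KO (16.1%) and 1373 of 15458 in HET (8.88%). PAX6 in KO changed sign, from -0.11 to 0.024 with the stricter filter, 0.055 with plain CPM and 0.17 in cells under 20 GCG, NKX6-1 in KO to -0.66 in those cells, and MAFA in HET to 0.059 with an INS limit of 50. The cause was not tested. Leaving out the 5 cells richest in IAPP and the cells with GCG were chosen after seeing the data.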
